A study of Mus musculus with 20 samples.

Results

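The genes described here encode proteins of synaptic vesicles and of the machinery that docks, primes and fuses vesicles with a target membrane. They were taken by gene symbol, as the synaptotagmins and synaptotagmin-like proteins, the numbered syntaxins other than Stx3, the syntaxin binding proteins, the VAMPs, the numbered Snap genes, the synapsins, Sv2, synaptophysin and synaptogyrin genes, the complexins, Rims, Unc13 and Bsn genes, and Nsf with its Nap adaptors. The platform annotation gave 60 such genes among 9230 with a probe of a single symbol, and where a gene had several probes the brightest by mean log2 value was used. All 60 genes had enough values to be tested. No probe of an Unc13 gene or of Bsn was among them, and Rims2 was the only active zone gene.

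Total RNA of adult retina from C57/B6 mice and of cortex from Swiss-Webster mice at postnatal day 1 had been pooled by tissue, and each pool was run on 1-colour GE Healthcare (Amersham) CodeLink arrays. There were 5 retina and 5 cortex arrays at a first site, and 5 retina and 5 cortex arrays at site 2. The stated aim was to gauge reproducibility among replicate arrays and from one site to another. Retina and cortex differed in tissue, strain and age together, so these cannot be told apart, and since the replicates were technical, of 1 pool per tissue, a p-value reflects array-to-array spread alone. In whole-tissue RNA, fewer cells of a type and less RNA per cell cannot be told apart either.

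Neurotransmitter is stored in vesicles that fuse when calcium enters the nerve terminal. Fusion is driven by SNARE proteins: a VAMP on the vesicle zippers with a syntaxin and a SNAP-25 family protein on the target membrane. Sec1/Munc18 proteins, encoded by Stxbp genes, guide that assembly, complexins hold it ready, and synaptotagmins sense calcium, after which the ATPase NSF and its SNAP adaptors take the spent complexes apart. Most synapses of cortex are of the conventional kind, while photoreceptors and bipolar cells of the retina release from ribbon synapses, at which syntaxin 3 takes the place of syntaxin 1. Related syntaxins, VAMPs and SNAP proteins carry out membrane traffic in all cells.

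The deposited values were intensities on a linear scale with no unit, on which the median probe of an array read 0.927 to 0.963. Precision here rests on the 5 arrays of each group and on the spread between them. The 5th, 25th and 95th percentiles of all intensities were 0.0445, 0.194 and 19.2, and 8 of the 60 genes (Sv2c, Syngr4, Syt2, Syt7, Syt8, Syt10, Sytl1 and Sytl4) read below the 25th percentile in every group. The median SD between the 5 arrays of a group was 0.14 log2 for these genes in first-site retina, 0.16 in first-site cortex, 0.15 in retina at site 2 and 0.21 in cortex at site 2. Replicate 5 of cortex at site 2 stood apart: it read lowest of its group for 49 of the 57 genes with 5 values there (86.0%), and for 71.4% of the 10041 probes with 5 values there. The site 2 counts over all 60 genes, and those of the roles that changed, are also given without that array. The labels of the tissues were borne out by their markers. All 4 rod genes on the array were higher in retina (summed intensity 263 to 359 in first-site retina and 3.07 to 10.1 in first-site cortex). All 4 cortical excitatory genes were higher in cortex (1.03 to 1.32 in first-site retina and 31.4 to 34.9 in first-site cortex). In cortex the rod genes Gnat1 and Sag read higher at the first site (means 2.66 and 1.26) than at site 2 (0.141 and 0.202). These site differences of -4.23 and -2.64 log2 were called.

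The bases before the start given in RefSeq's promoter table are shown for the members with 1 such start that were called the same way at both sites, the 3 highest in retina (Vamp8, Stxbp3, Nsf) and the 2 lowest in retina (Stx1a, Sytl4), so that the control regions of genes moving in opposite directions can be read side by side. Each run is the 250 bases before that start on the gene's own strand, from RefSeq on GRCm38.p6. Capitals mark a CRX- and OTX-type core (TAATCC), a cyclic AMP response element core (TGACGT) or a GC box (GGGCGG), on either strand. The Vamp8 run lies at chr6:72390668-72390917 on the minus strand, that of Stxbp3 at chr3:108840503-108840752 (minus), that of Nsf at chr11:103954057-103954306 (minus), that of Stx1a at chr5:135023232-135023481 (plus) and that of Sytl4 at chrX:133981813-133982062 (minus). The last 9 bases of the Sytl4 run lie inside the annotated gene, which starts further upstream than the listed start.
Vamp8: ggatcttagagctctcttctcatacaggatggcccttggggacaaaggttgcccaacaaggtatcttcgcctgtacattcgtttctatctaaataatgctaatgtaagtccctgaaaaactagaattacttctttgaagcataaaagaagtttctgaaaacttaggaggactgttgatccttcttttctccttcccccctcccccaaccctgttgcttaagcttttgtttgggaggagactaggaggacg
Stxbp3: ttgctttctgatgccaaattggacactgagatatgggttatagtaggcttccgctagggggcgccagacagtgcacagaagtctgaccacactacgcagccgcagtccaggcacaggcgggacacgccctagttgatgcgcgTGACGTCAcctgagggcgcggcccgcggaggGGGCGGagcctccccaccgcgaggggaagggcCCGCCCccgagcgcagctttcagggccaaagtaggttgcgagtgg
Nsf: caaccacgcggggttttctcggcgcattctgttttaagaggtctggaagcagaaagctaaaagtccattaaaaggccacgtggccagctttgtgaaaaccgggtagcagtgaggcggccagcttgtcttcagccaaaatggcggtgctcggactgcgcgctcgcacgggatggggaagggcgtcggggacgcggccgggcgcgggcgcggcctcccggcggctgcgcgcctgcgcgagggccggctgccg
Stx1a: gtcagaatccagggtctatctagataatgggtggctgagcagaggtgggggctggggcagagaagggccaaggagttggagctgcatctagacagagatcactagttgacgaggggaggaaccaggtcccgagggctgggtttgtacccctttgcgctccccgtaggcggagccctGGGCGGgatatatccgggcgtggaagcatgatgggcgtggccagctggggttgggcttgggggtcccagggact
Sytl4: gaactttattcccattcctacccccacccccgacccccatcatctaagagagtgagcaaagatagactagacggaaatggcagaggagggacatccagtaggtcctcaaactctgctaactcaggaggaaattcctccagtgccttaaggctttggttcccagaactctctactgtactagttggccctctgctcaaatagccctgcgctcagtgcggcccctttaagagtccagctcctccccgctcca

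Matches stood in 2 of these 5 windows. Stxbp3 held 2 matches of TGACGT that overlap on opposite strands and 2 GC boxes, and Stx1a held 1 GC box. Over the 32851 RefSeq windows of the same length, 6.25% held TAATCC, 6.47% held TGACGT and 32.7% held GGGCGG. Windows were found for 46 of the 60 genes, 58 in all, and of those 1 held TAATCC, 4 held TGACGT and 35 held GGGCGG. Those windows were also richer in G and C, with a median of 61.6% against 52.4% over all windows, and GC box counts were not adjusted for this. The Vamp8 window was 43.6% G and C, against 66.0% in Nsf, 64.4% in Stxbp3, 62.0% in Stx1a and 53.2% in Sytl4.

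The vesicle and exocytosis genes differed between adult retina and newborn cortex in both directions, and the release machinery did not move as a block. Called means an adjusted p under 0.05 in limma together with a difference of at least 2-fold. At the first site 11 of 60 genes were higher in retina and 8 lower, which is 19 called, where 24.9% of all 10339 probes tested were called (11.9% higher and 13.0% lower). At site 2, 10 were higher and 8 lower, where 24.6% of all probes were called (11.1% higher and 13.5% lower). The same 9 genes were higher at both sites (Nsf, Napb, Stx4a, Stxbp3, Syp, Syt1, Syt2, Syt9 and Vamp8) and the same 7 were lower at both (Stx1a, Stx2, Stx7, Syn2, Syngr3, Syt5 and Sytl4), where 9.31% and 10.5% of all probes were. Vamp8 and Stxbp3 passed 4-fold at both sites and Stx1a at the first site, where 8.75% of all probes passed it at the first site and 8.14% at site 2. A further 5 genes were called at 1 site only and 39 at neither. The median difference of the 60 genes was 0.10 log2 at the first site and 0.11 at site 2, where it was -0.04 and -0.05 over all probes. The median absolute difference was 0.61 and 0.55 log2 for these genes, and 0.50 and 0.53 for all probes. Without replicate 5 of cortex at site 2, 10 genes were higher and 7 lower at site 2, among them all but Syt9 and Stx2 of the 16 called at both sites. By role, that array moved 1 call each: without it 2 synaptotagmins and 2 of the syntaxin partners were higher at site 2, and 2 syntaxins were lower.

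**Figure D1:**
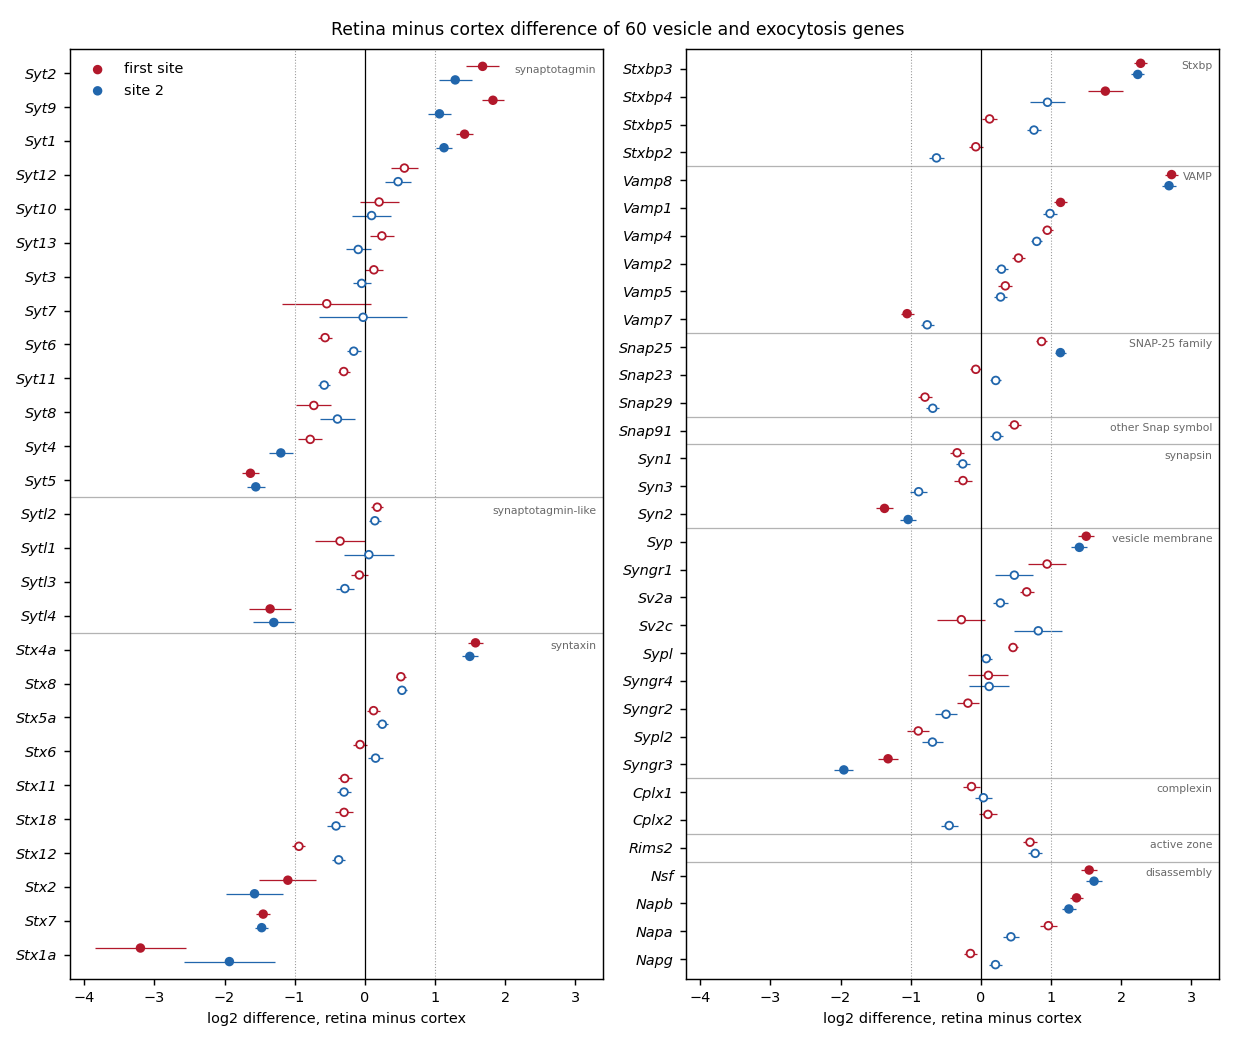
Difference in log2 intensity, retina minus cortex, for each of the 60 genes by role, at the first site (red) and at site 2 (blue). Points are limma estimates with bars of 1 SE, filled points were called (adjusted p under 0.05 and at least 2-fold) and dotted lines mark 2-fold. The open points lie within 2-fold. Both called directions occur within the synaptotagmins, the syntaxins and the vesicle membrane proteins, and at the first site within the VAMPs.

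By textbook role the members fell into 20 genes of neuronal exocytosis, 21 of general membrane traffic and 19 others. Nsf, Napb and the general adaptor Napa were counted with neuronal exocytosis, so that list is not confined to neuron-specific genes. Napg was counted with general traffic, and the synaptotagmins besides Syt1 and Syt2 with the others. For each list here and below, the shares of all probes called at the first site were 11.9% higher in retina and 13.0% lower. At site 2 these shares were 11.1% and 13.5%. Of the neuronal exocytosis genes, 6 were higher in retina and 3 lower at each site, with a median difference of 0.68 and 0.45 log2. Without replicate 5 of cortex at site 2 their site 2 counts were the same, and their median there was 0.31. Their arrays did not overlap between tissues for 15 and 13 of the 20, where 53.3% and 48.2% of all probes did not overlap. Of the general traffic genes, 3 were higher in retina at each site and 3 and 2 lower, with medians of -0.07 and 0.08; without replicate 5 of cortex at site 2 the 2 became 1. Of the 60 genes, 35 did not overlap at each site, and 21 at the first site and 27 at site 2 passed the adjusted p without reaching 2-fold, where 35.0% and 35.8% of all probes did so. The adjusted p alone was passed by 40 and 45 genes, where 59.9% and 60.4% of all probes passed it.

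Among the synaptotagmins, the vesicle proteins that sense calcium, 3 of 13 were higher in retina at each site, and 1 was lower at the first site and 2 at site 2. Syt1, the calcium sensor of fast synchronous release, read 7.59, 7.16, 5.37, 6.48 and 6.03 in first-site retina and 2.75, 2.61, 2.44, 2.03 and 2.31 in first-site cortex. At site 2 Syt1 read 6.49, 6.49, 7.70, 6.10 and 5.88 in retina and 2.58, 3.09, 3.65, 3.21 and 2.49 in cortex. Every retina array was above every cortex array at both sites, and the log2 difference was 1.42 at the first site (SE 0.12, adjusted p = 3.7e-09) and 1.13 at site 2 (SE 0.12, adjusted p = 1.0e-07), which is 2.68-fold and 2.19-fold. Syt2, a close relative of Syt1 that serves fast release at other synapses, was dim, at 0.201, 0.131, 0.137, 0.128 and 0.118 in first-site retina and 0.0595, 0.0306, 0.0360, 0.0455 and 0.0545 in first-site cortex. Site 2 gave 0.154, 0.144, 0.130, 0.147 and 0.254 in retina and 0.0563, 0.0737, 0.0915, 0.0805 and 0.0404 in cortex. The groups did not overlap, and Syt2 was higher in retina by 1.68 and 1.29 log2 (adjusted p = 4.6e-06 and 9.9e-05). Its group means, though, lay below the 25th percentile of all intensities. Raising dim values to that percentile left differences of 0.01 and 0.08, not called. Such a floor, here and below, must shrink a difference between values that lie under it, so a lost call does not show the difference to be absent. Syt9, a synaptotagmin of secretory vesicles, read 0.413, 0.386, 0.427, 0.398 and 0.413 in first-site retina and 0.146, 0.0943, 0.141, 0.0772 and 0.134 in first-site cortex. At site 2 Syt9 read 0.408, 0.425, 0.371, 0.358 and 0.282 in retina and 0.193, 0.208, 0.163, 0.171 and 0.146 in cortex. Retina and cortex arrays did not overlap at either site, and the difference was 1.83 and 1.06 log2 (adjusted p = 5.4e-09 and 8.3e-06). The site 2 value sat at the 2-fold limit: it was 1.00, just under that limit, without replicate 5 of cortex at site 2 and 0.89 when dim values were raised to the 25th percentile.

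Syt5, another calcium-binding synaptotagmin, went the other way. It read 1.51, 1.40, 1.53, 1.40 and 1.53 in first-site retina and 5.04, 4.20, 4.57, 4.66 and 4.36 in first-site cortex, and 1.44, 1.35, 1.44, 1.37 and 1.06 in retina and 4.79, 4.05, 4.48, 3.90 and 2.63 in cortex at site 2. All retina arrays were below all cortex arrays, and Syt5 was lower in retina by 3.10-fold and 2.94-fold (log2 difference -1.63 and -1.55, SE 0.13 and 0.13, adjusted p = 1.1e-09 and 2.4e-09). Syt4, an isoform with weakened calcium binding that is found on dense-core vesicles, read 6.63, 5.15, 2.90, 5.14 and 4.82 in first-site retina and 9.65, 7.68, 9.19, 7.90 and 6.77 in first-site cortex. On the arrays of site 2 it read 5.66, 5.41, 5.81, 4.41 and 4.89 in retina and 10.5, 11.7, 14.5, 13.1 and 10.5 in cortex. The groups did not overlap at either site, and the difference of -0.78 at the first site (SE 0.17, adjusted p = 5.2e-04) and -1.20 at site 2 (SE 0.17, adjusted p = 4.4e-06) was called at site 2 only. Syt11, a close relative of Syt4 that does not bind calcium, read 5.60, 4.68, 4.85, 5.34 and 4.64 in first-site retina and 6.01, 5.39, 6.66, 6.50 and 6.35 in first-site cortex, and 3.68, 4.50, 3.96, 3.42 and 3.66 in retina and 5.44, 5.49, 6.34, 5.29 and 6.10 in cortex at site 2. Its difference was -0.30 and -0.58 log2 (adjusted p = 0.0053 and 8.9e-06), short of 2-fold, and its arrays overlapped at the first site only. Syt3, a synaptotagmin with high calcium affinity, read 1.10, 1.07, 0.974, 0.923 and 0.937 in first-site retina and 0.892, 0.907, 0.925, 0.877 and 0.963 in first-site cortex, and 1.14, 1.66, 1.15, 1.30 and 1.37 in retina and 1.31, 1.42, 1.65, 1.58 and 0.931 in cortex at site 2. The tissues overlapped, with differences of 0.13 and -0.04 log2 (adjusted p = 0.42 and 0.79). The remaining Syt6, Syt7, Syt8, Syt10, Syt12 and Syt13 were not called at either site, with differences from -0.73 (Syt8) to 0.56 (Syt12) at the first site and from -0.39 (Syt8) to 0.47 (Syt12) at site 2. Syt7 stood at 0.921 on replicate 2 of retina at site 2 and no higher than 0.0852 on the rest of that group. Its site 2 difference was -0.02 log2 with that array and -0.90 without it (adjusted p = 0.0073), still not called.

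The synaptotagmin-like proteins are effectors of Rab27 GTPases, which tether secretory granules. Of the 4 on the array, Sytl4, known as granuphilin, was lower in retina at both sites. It read 0.0493, 0.0433, 0.0654, 0.0296 and 0.0649 in first-site retina and 0.142, 0.166, 0.0891, 0.0872 and 0.158 in first-site cortex, and 0.101, 0.0688, 0.0590, 0.0786 and 0.0918 in retina and 0.161, 0.286, 0.161, 0.328 and 0.109 in cortex at site 2. The tissues did not overlap and the difference was -1.35 and -1.30 log2 (adjusted p = 5.5e-04 and 7.8e-04), but after dim values were raised to the 25th percentile it was 0 at the first site and -0.26 at site 2, which lost both calls. Sytl2 read 1.63, 1.48, 1.57, 1.49 and 1.52 in first-site retina and 1.37, 1.25, 1.33, 1.36 and 1.49 in first-site cortex, and 1.38, 1.60, 1.50, 1.57 and 1.38 in retina and 1.53, 1.45, 1.46, 1.25 and 1.08 in cortex at site 2. Sytl3 read 0.357, 0.335, 0.344, 0.390 and 0.467 in first-site retina and 0.328, 0.366, 0.453, 0.437 and 0.414 in first-site cortex, and 0.354, 0.350, 0.453, 0.477 and 0.525 in retina and 0.508, 0.519, 0.592, 0.516 and 0.469 in cortex at site 2. In both genes the tissues overlapped, with differences of 0.18 and 0.14 log2 for Sytl2 and -0.08 and -0.28 for Sytl3, and Sytl1 differed by -0.35 and 0.06.

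The syntaxins, target-membrane SNAREs, split by member: 1 of 10 was higher in retina and 3 were lower, the same genes at each site. Stx1a, the syntaxin of conventional nerve terminals, read 0.260, 0.251, 0.276, 0.293 and 0.223 in first-site retina and 2.63, 2.05, 2.37, 2.36 and 2.53 in first-site cortex. At site 2 it read 0.357, 0.272, 8.05, 0.257 and 0.287 in retina and 2.43, 2.31, 2.48, 2.27 and 1.47 in cortex. At the first site every retina array was far below every cortex array, a difference of -3.20 log2 (SE 0.65, adjusted p = 2.8e-04) or 9.18-fold. At site 2, replicate 3 of retina read above all cortex arrays while the other 4 retina arrays read below all of them. The site 2 difference was -1.93 log2 (adjusted p = 0.015), and without that array it was -2.89 (adjusted p = 4.7e-12). With only the 2 groups of site 2 in the fit the call was lost (adjusted p = 0.081). The same array entered the shared spread, and without it the adjusted p at the first site was 4.3e-13.

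Stx7, a syntaxin of endosomes and lysosomes, read 3.61, 3.74, 3.37, 4.22 and 3.95 in first-site retina and 10.9, 8.86, 11.4, 11.2 and 9.32 in first-site cortex. Site 2 gave 3.97, 4.46, 4.25, 3.74 and 4.18 in retina and 12.0, 11.7, 12.9, 11.6 and 9.22 in cortex. Retina and cortex arrays did not overlap, and Stx7 was lower in retina by 2.73-fold and 2.77-fold (log2 difference -1.45 and -1.47, SE 0.10 and 0.10, adjusted p = 1.1e-10 and 9.5e-11). Stx2, a plasma membrane syntaxin of many cell types, read 0.448, 0.467, 0.458, 0.495 and 0.369 in first-site retina and 0.982, 1.04, 0.845, 0.866 and 1.04 in first-site cortex. On the arrays of site 2 it read 0.269, 0.305, 0.266, 0.410 and 0.270 in retina and 0.591, 0.545, 0.616, 0.622 and 4.55 in cortex. Replicate 5 of cortex at site 2 was far above the other 4. With it Stx2 was lower in retina at both sites (log2 difference -1.10 and -1.57, adjusted p = 0.026 and 0.0024), and without it the site 2 difference was -0.98, just short of 2-fold (adjusted p = 9.2e-07). Its first-site call was lost without replicate 5 of retina there (-1.03, adjusted p = 0.054).

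Stx4a, the syntaxin of regulated secretion at the plasma membrane of many cells, stood against these 3. It read 2.85, 2.67, 2.28, 2.48 and 2.35 in first-site retina and 0.826, 0.895, 0.824, 0.800 and 0.874 in first-site cortex, and 1.90, 1.80, 1.83, 1.76 and 1.78 in retina and 0.604, 0.782, 0.733, 0.697 and 0.454 in cortex at site 2. Every retina array was above every cortex array, and Stx4a was 2.98-fold and 2.82-fold higher in retina (log2 difference 1.58 and 1.50, SE 0.11 and 0.11, adjusted p = 2.8e-10 and 6.5e-10). Stx12, of recycling endosomes, read 9.25, 9.27, 9.77, 10.3 and 11.7 in first-site retina and 21.3, 18.9, 21.0, 19.0 and 16.3 in first-site cortex, and 16.2, 14.2, 16.7, 15.9 and 17.0 in retina and 22.2, 22.1, 20.9, 21.4 and 17.3 in cortex at site 2. The groups did not overlap, with -0.94 and -0.37 log2 (adjusted p = 3.3e-08 and 0.0016), short of 2-fold. Stx8, of late endosomes, read 7.62, 7.20, 7.19, 7.45 and 7.18 in first-site retina and 5.30, 5.10, 5.09, 5.14 and 5.03 in first-site cortex, and 6.97, 6.92, 6.74, 7.29 and 7.11 in retina and 5.16, 5.00, 5.42, 4.77 and 4.03 in cortex at site 2. Its arrays did not overlap either, and the difference of 0.51 and 0.53 log2 (adjusted p = 1.5e-06 and 1.1e-06) also fell short of 2-fold. Stx5a, Stx6, Stx11 and Stx18, of the secretory and endosomal pathway, differed by -0.30 to 0.12 log2 at the first site and by -0.41 to 0.25 at site 2 and overlapped between tissues. Stx3, the syntaxin of ribbon synapses and left out of this gene set, read 8.86 in first-site retina and 0.293 in first-site cortex, a gap of 4.92 log2 (site 2: 5.00), opposite in direction to Stx1a.

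**Figure D2:**
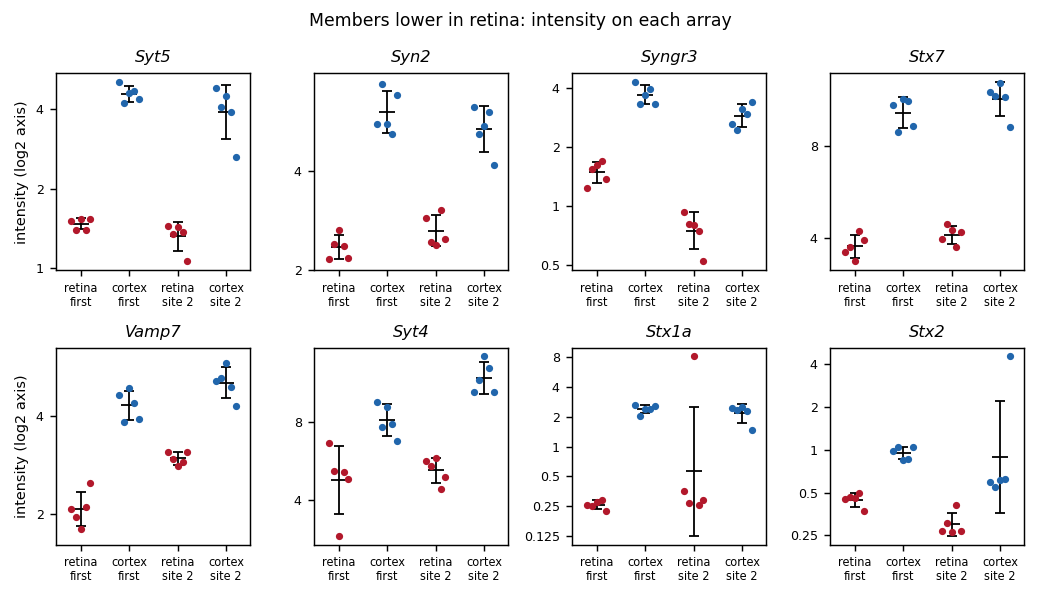
Intensity on each array (log2 axis, no unit) of 8 genes called lower in retina at 1 or both sites, with retina in red and cortex in blue. Dots are the 5 arrays of a group, and the bar with whiskers is the mean of log2 intensity with 1 SD. Stx1a has 1 retina array of site 2 at 8.05 and Stx2 has 1 cortex array of site 2 at 4.55, far from the rest of their groups.

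Of the 4 Sec1/Munc18 and other syntaxin partners, Stxbp3 had the largest difference. Stxbp3 encodes Munc18c, the partner of syntaxin 4, and read 5.59, 5.23, 4.62, 4.93 and 4.47 in first-site retina and 0.998, 1.05, 0.977, 1.01 and 1.08 in first-site cortex. At site 2 it read 4.81, 4.85, 4.56, 4.09 and 4.41 in retina and 0.962, 1.01, 1.16, 0.952 and 0.769 in cortex. The retina arrays lay far above the cortex arrays, and the gene was 4.85-fold and 4.71-fold higher in retina (log2 difference 2.28 and 2.24, SE 0.09 and 0.09, adjusted p = 7.1e-14 and 9.2e-14). Stxbp4, a syntaxin 4 binding protein also known as Synip, read 0.531, 0.240, 0.208, 0.204 and 0.222 in first-site retina and 0.0508, 0.0689, 0.0864, 0.0993 and 0.0851 in first-site cortex, and 0.395, 0.531, 0.425, 0.343 and 0.462 in retina and 0.142, 0.260, 0.217, 0.250 and 0.263 in cortex at site 2. The tissues did not overlap, and the difference of 1.77 and 0.95 log2 (adjusted p = 4.0e-06 and 0.0026) was called at the first site only, where it was 0.42 and lost its call once dim values were raised to the 25th percentile. At site 2 it passed 2-fold after quantile normalization (1.31). Stxbp5, tomosyn, an inhibitor of SNARE assembly, read 1.38, 1.32, 1.32, 1.56 and 1.92 in first-site retina and 1.52, 1.49, 1.44, 1.28 and 1.13 in first-site cortex, and 3.60, 3.32, 3.60, 3.49 and 3.61 in retina and 2.26, 2.22, 2.05, 2.16 and 1.77 in cortex at site 2. The tissues overlapped at the first site and not at site 2, with 0.12 and 0.76 log2 (adjusted p = 0.33 and 3.9e-06), and a second, dimmer probe differed by 0.33 and 0.67. Stxbp2, Munc18-2 of granule secretion, read 0.495, 0.533, 0.537, 0.482 and 0.486 in first-site retina and 0.637, 0.436, 0.558, 0.547 and 0.501 in first-site cortex, and 0.510, 0.466, 0.468, 0.412 and 0.360 in retina and 0.680, 0.641, 0.734 and 0.678 (4 arrays, 1 blank) in cortex at site 2. It differed by -0.07 and -0.63 log2 and was not called at either site.

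The VAMPs, the SNAREs of vesicles, had 2 of 6 higher in retina and 1 lower at the first site, against 1 higher and 0 lower at site 2. Vamp8, endobrevin, a SNARE of endosomes and of granule secretion outside neurons, had the largest increase of all 60 genes at both sites. It read 6.34, 6.50, 5.44, 6.07 and 5.50 in first-site retina and 0.779, 0.854, 0.929, 0.998 and 0.981 in first-site cortex, and 4.29, 4.12, 3.84, 4.39 and 5.11 in retina and 0.712, 0.723, 0.668, 0.737 and 0.552 in cortex at site 2. No arrays overlapped, and the difference was 2.72 at the first site (SE 0.10, adjusted p = 1.1e-14) and 2.68 at site 2 (SE 0.10, adjusted p = 1.4e-14), which is 6.58-fold and 6.42-fold. Vamp1, synaptobrevin 1, read 0.961, 1.07, 1.14, 1.12 and 1.25 in first-site retina and 0.521, 0.476, 0.587, 0.490 and 0.448 in first-site cortex, and 1.15, 1.28, 1.37, 1.22 and 1.49 in retina and 0.709, 0.720, 0.673, 0.604 and 0.575 in cortex at site 2. Retina and cortex arrays did not overlap, and the differences of 1.14 and 0.99 log2 (adjusted p = 3.6e-09 and 2.8e-08) lay on either side of the 2-fold limit. Vamp2, synaptobrevin 2, the main vesicle SNARE of the forebrain, read 12.5, 13.4, 13.6, 12.8 and 11.8 in first-site retina and 9.11, 7.42, 9.29, 10.0 and 8.48 in first-site cortex, and 9.62, 9.41, 10.6, 9.25 and 8.45 in retina and 8.04, 7.06, 8.75, 8.54 and 6.40 in cortex at site 2. It overlapped at site 2 only, with 0.54 and 0.29 log2 (adjusted p = 7.3e-05 and 0.012), short of 2-fold.

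Vamp7, a VAMP of late endosomes that also serves neurite growth, read 2.08, 1.96, 1.80, 2.10 and 2.48 in first-site retina and 4.63, 3.83, 4.85, 4.37 and 3.91 in first-site cortex, and 3.09, 2.95, 2.81, 2.88 and 3.11 in retina and 5.12, 5.22, 5.79, 4.89 and 4.29 in cortex at site 2. All retina arrays were below all cortex arrays, and the difference of -1.05 and -0.77 log2 (adjusted p = 8.5e-09 and 7.3e-07) was called at the first site only. Vamp4, of the trans-Golgi network, read 7.21, 6.94, 6.08, 6.19 and 6.15 in first-site retina and 3.16, 3.28, 3.36, 3.73 and 3.34 in first-site cortex, and 4.39, 4.86, 4.62, 4.56 and 4.95 in retina and 2.76, 2.89, 2.65, 2.89 and 2.31 in cortex at site 2. The arrays did not overlap, with 0.95 and 0.80 log2 (adjusted p = 1.5e-09 and 1.9e-08), just short of 2-fold. Vamp5 differed by 0.35 and 0.28 log2, and its second, dimmer probe by 0.24 and 0.31.

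Snap25, the plasma membrane SNARE of neurons, was the only one of these genes above the 95th percentile of all intensities in every group. It read 111, 86.3, 92.8, 91.4 and 85.0 in first-site retina and 44.9, 49.4, 55.5, 51.8 and 54.1 in first-site cortex. Site 2 gave 122, 127, 123.3, 127 and 132 in retina and 55.6, 58.2, 57.7, 52.5 and 64.7 in cortex. Each retina array was above each cortex array, and the difference of 0.87 at the first site (SE 0.08, adjusted p = 1.5e-08) and 1.13 at site 2 (SE 0.08, adjusted p = 3.0e-10) reached 2-fold at site 2 only. Snap23, its counterpart in other cells, read 1.18, 1.12, 1.03, 1.19 and 1.07 in first-site retina and 1.10, 1.18, 1.14, 1.21 and 1.24 in first-site cortex, and 0.735, 0.786, 0.621, 0.701 and 0.668 in retina and 0.620, 0.608, 0.559, 0.703 and 0.543 in cortex at site 2, and overlapped between tissues with -0.07 and 0.21 log2. Snap29, of membrane traffic in all cells, read 0.633, 0.723, 0.642, 0.741 and 0.684 in first-site retina and 1.23, 1.11, 1.23, 1.29 and 1.09 in first-site cortex, and 0.736, 0.617, 0.582, 0.666 and 0.520 in retina and 0.976, 1.05, 1.09, 1.07 and 0.826 in cortex at site 2. Its arrays did not overlap, with -0.80 and -0.69 log2 (adjusted p = 5.6e-07 and 3.9e-06), short of 2-fold. Snap91, the clathrin adaptor AP180 and no SNARE, read 14.9, 12.6, 11.1, 12.7 and 12.0 in first-site retina and 8.93, 10.5, 8.29, 7.87 and 9.94 in first-site cortex, and 14.4, 13.7, 13.8, 14.8 and 14.1 in retina and 11.6, 13.2, 12.4, 13.5 and 10.1 in cortex at site 2. It differed by 0.48 and 0.23 log2 and was not called.

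The synapsins coat vesicles and hold them in reserve, and ribbon synapses of the retina are known to lack synapsin. Of the 3, 0 were called higher in retina and 1 lower at each site, where 11.9% and 11.1% of all probes were called higher. With 3 genes the count of 0 stands near that share, and any tie to ribbon synapses was not tested. Syn2 read 2.16, 2.41, 2.65, 2.36 and 2.17 in first-site retina and 5.59, 7.39, 5.58, 5.22 and 6.86 in first-site cortex, and 2.88, 2.44, 2.38, 3.04 and 2.49 in retina and 6.31, 5.22, 5.49, 6.09 and 4.19 in cortex at site 2. The tissues did not overlap, and Syn2 was lower in retina by 2.59-fold and 2.05-fold (log2 difference -1.37 and -1.04, SE 0.12 and 0.12, adjusted p = 5.8e-09 and 3.1e-07). The site 2 call sat at the 2-fold limit and was lost when any of 3 arrays was left out, at -0.98 to -0.9999. A second Syn2 probe, read at the first site only, was at 0.545 to 0.736 in retina and 0.958 to 1.13 in cortex. Syn1 read 5.44, 4.87, 4.61, 4.54 and 4.36 in first-site retina and 5.32, 7.14, 5.71, 5.22 and 6.89 in first-site cortex, and 6.68, 6.25, 6.11, 6.72 and 6.34 in retina and 8.18, 7.68, 8.53, 7.67 and 6.46 in cortex at site 2. Its arrays overlapped at both sites, and it differed by -0.34 and -0.26 log2 (adjusted p = 0.0052 and 0.028), well short of 2-fold. Syn3 read 0.261, 0.322, 0.330, 0.302 and 0.301 in first-site retina and 0.422, 0.400, 0.317, 0.300 and 0.379 in first-site cortex, and 0.284, 0.224, 0.211, 0.207 and 0.209 in retina and 0.442, 0.425, 0.426, 0.494 and 0.319 in cortex at site 2. It overlapped at the first site and not at site 2, with -0.25 and -0.89 log2 (adjusted p = 0.085 and 4.0e-06), and was not called.

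Proteins of the vesicle membrane had 1 of 9 genes higher in retina and 1 lower, the same at both sites. Syp, synaptophysin, a major protein of the synaptic vesicle membrane, read 28.9, 26.1, 28.9, 24.2 and 24.7 in first-site retina and 8.66, 11.0, 8.80, 8.76 and 9.71 in first-site cortex. On the arrays of site 2 it read 32.6, 25.5, 28.7, 32.3 and 30.6 in retina and 11.7, 12.2, 12.6, 12.4 and 8.21 in cortex. Every retina array was above every cortex array, and Syp was 2.83-fold and 2.65-fold higher in retina (log2 difference 1.50 and 1.40, SE 0.11 and 0.11, adjusted p = 7.4e-10 and 2.1e-09). Syngr3, a synaptogyrin, another membrane-spanning vesicle protein, moved against it. It read 1.25, 1.55, 1.62, 1.70 and 1.37 in first-site retina and 4.31, 3.35, 3.72, 3.98 and 3.34 in first-site cortex, and 0.931, 0.812, 0.802, 0.744 and 0.523 in retina and 2.62, 2.46, 3.13, 2.96 and 3.43 in cortex at site 2. Retina and cortex arrays did not overlap, and Syngr3 was lower in retina by 2.50-fold and 3.87-fold (log2 difference -1.32 and -1.95, adjusted p = 7.2e-08 and 2.7e-10). Sv2a, a vesicle glycoprotein and the target of levetiracetam, read 2.34, 2.33, 2.84, 1.99 and 2.07 in first-site retina and 1.39, 1.72, 1.40, 1.37 and 1.45 in first-site cortex, and 1.37, 1.24, 1.37 and 1.35 (4 arrays, 1 blank) in retina and 1.10, 1.09, 1.06, 1.28 and 0.974 in cortex at site 2. Sypl, a synaptophysin relative outside neurons, read 2.75, 2.58, 2.51, 2.70 and 2.34 in first-site retina and 2.09, 1.75, 1.81, 1.82 and 1.90 in first-site cortex, and 2.64, 2.42, 2.73, 2.60 and 2.26 in retina and 2.38, 2.51, 2.54 and 2.17 (4 arrays, 1 blank) in cortex at site 2. Neither was called, at 0.65 and 0.28 log2 for Sv2a and 0.46 and 0.08 for Sypl. Syngr1, Syngr2, Syngr4, Sypl2 and Sv2c were not called either, with differences from -0.89 (Sypl2) to 0.94 (Syngr1) at the first site and from -0.69 (Sypl2) to 0.82 (Sv2c) at site 2. Sv2c was dim in every group, and without replicate 5 of cortex at site 2, which read 0.0156, its site 2 difference was 0.37 (adjusted p = 0.082). A second, dimmer probe of Sypl2 differed by -0.37 and 0.41.

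**Figure D3:**
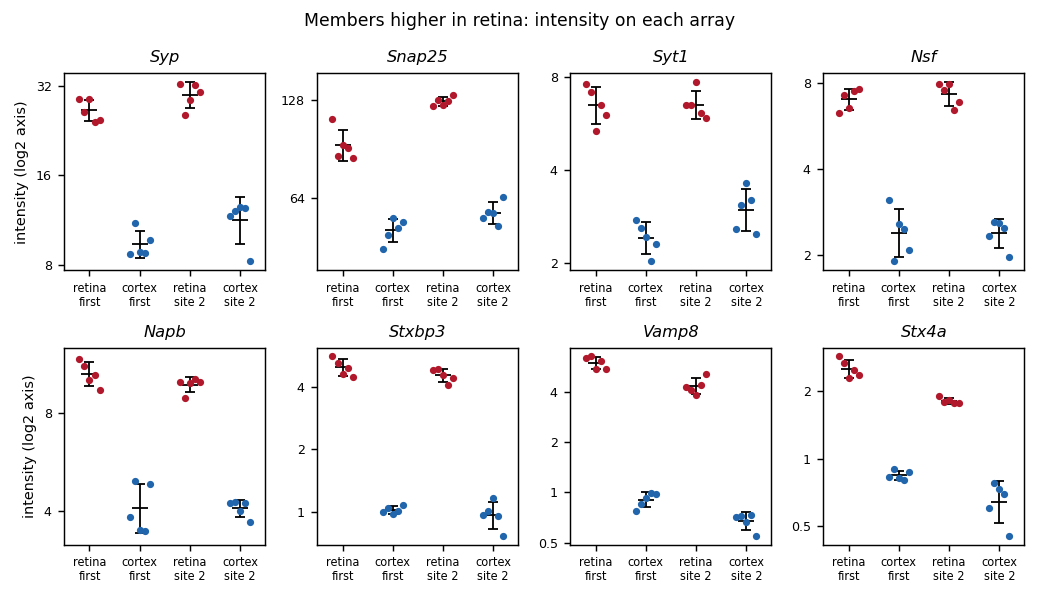
Intensity on each array (log2 axis, no unit) of 8 genes called higher in retina at 1 or both sites, with retina in red and cortex in blue. Dots are the 5 arrays of a group, and the bar with whiskers is the mean of log2 intensity with 1 SD. In each gene the retina arrays lie above the cortex arrays of the same site without overlap.

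The complexins and the active zone gene were not called. Cplx1, the complexin that clamps SNARE complexes in many fast synapses, read 1.39, 1.75, 2.02, 1.84 and 1.99 in first-site retina and 2.37, 1.81, 2.07, 1.91 and 1.69 in first-site cortex, and 3.10, 2.65, 2.99, 2.92 and 2.56 in retina and 2.99, 2.97, 2.87, 3.07 and 2.07 in cortex at site 2. Cplx2, its close relative, read 2.85, 2.05, 1.87, 1.97 and 1.87 in first-site retina and 1.86, 1.85, 1.92, 2.08 and 2.07 in first-site cortex, and 2.36, 1.95, 2.20, 2.34 and 2.29 in retina and 3.11, 3.31, 3.54, 3.16 and 2.24 in cortex at site 2. The tissues overlapped in both genes at both sites, with -0.13 and 0.04 log2 for Cplx1 (adjusted p = 0.37 and 0.82) and 0.10 and -0.45 for Cplx2 (adjusted p = 0.51 and 0.0035). The overlap of Cplx2 at site 2 came from replicate 5 of cortex, at 2.24. Without that array its site 2 difference was -0.56, still short of 2-fold. The platform annotation held no probe with the single symbol Cplx3 or Cplx4, the complexins of retinal ribbon synapses. Rims2, a scaffold of the active zone that binds Rab3, read 10.4, 9.26, 8.99, 9.26 and 9.96 in first-site retina and 5.42, 6.06, 5.86, 5.31 and 6.92 in first-site cortex, and 7.73, 7.84, 7.93, 8.18 and 8.50 in retina and 5.53, 5.29, 4.90, 4.44 and 3.59 in cortex at site 2. All retina arrays were above all cortex arrays, with 0.70 and 0.77 log2 (adjusted p = 5.8e-06 and 1.7e-06), short of 2-fold.

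The genes that take SNARE complexes apart included 2 of 4 higher in retina and 0 lower at each site. Nsf, the ATPase itself, read 6.25, 7.24, 6.55, 7.47 and 7.62 in first-site retina and 3.13, 1.91, 2.58, 2.48 and 2.09 in first-site cortex. At site 2 it read 7.93, 7.57, 7.93, 6.42 and 6.87 in retina and 2.33, 2.61, 2.60, 2.50 and 1.98 in cortex. No arrays overlapped, and Nsf was 2.92-fold and 3.06-fold higher in retina (log2 difference 1.54 and 1.61, SE 0.12 and 0.12, adjusted p = 9.5e-10 and 5.2e-10). Napb, the brain form of the SNAP adaptor, read 11.7, 11.1, 10.1, 10.4 and 9.35 in first-site retina and 3.83, 4.96, 3.51, 3.49 and 4.85 in first-site cortex. Site 2 gave 9.96, 8.88, 9.82, 10.1 and 9.92 in retina and 4.25, 4.25, 3.99, 4.23 and 3.69 in cortex. It did not overlap either, and was 2.57-fold and 2.39-fold higher in retina (log2 difference 1.36 and 1.25, SE 0.10 and 0.10, adjusted p = 4.2e-10 and 1.5e-09). Napa, the general adaptor, read 5.42, 4.50, 4.03, 4.27 and 4.47 in first-site retina and 2.46, 2.03, 2.23, 2.60 and 2.31 in first-site cortex, and 2.11, 1.85, 1.93, 2.07 and 1.91 in retina and 1.45, 1.79, 1.65, 1.51 and 1.04 in cortex at site 2. Its arrays did not overlap, with 0.96 and 0.43 log2 (adjusted p = 8.2e-07 and 0.0042), below 2-fold. Napg, the gamma form, read 2.97, 3.30, 3.36, 3.76 and 3.78 in first-site retina and 4.49, 3.48, 3.55, 4.13 and 3.41 in first-site cortex, and 3.04, 3.57, 2.97 and 3.27 (4 arrays, 1 blank) in retina and 2.94, 2.78, 2.90, 2.79 and 2.48 in cortex at site 2. It was not called, with -0.15 and 0.21 log2 (adjusted p = 0.18 and 0.075).

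Both sites measured the same 2 RNA pools, so they test how well a difference is repeated. The sign of the tissue difference was the same at both sites for 51 of the 60 genes, and the 9 exceptions were not called at either site. In limma's test of the tissue difference at site 2 minus that at the first site, 0 of 60 genes were called, where 0.725% of all probes were (0.271% higher and 0.455% lower, and 0.0774% past 4-fold). The adjusted p alone was passed by 4 genes, where 3.98% of all probes passed it. Within retina, 3 genes were called between sites, where 6.24% of all probes were (4.79% higher and 1.45% lower at site 2, and 0.445% past 4-fold). Stxbp5 was higher at site 2 (1.25 log2, adjusted p = 8.5e-08), though its second probe differed by 0.24 (adjusted p = 0.062) and was not called. Napa (-1.20, adjusted p = 3.8e-07) and Syt13 (-1.16, adjusted p = 3.2e-05) were lower. Stx1a differed by 1.12 log2 without passing the test (adjusted p = 0.17), and by 0.16 without replicate 3 of retina at site 2. Within cortex, 2 genes were called higher at site 2, where 7.21% of all probes were called (5.29% higher and 1.92% lower, and 0.696% past 4-fold), namely Stxbp4 (1.54 log2, adjusted p = 6.2e-05) and Syt12 (1.04, adjusted p = 2.1e-04). Both were dim in first-site cortex. After dim values were raised to the 25th percentile they differed by 0.28 and 0.20 and neither was called, and after quantile normalization Syt12 differed by 0.59 and was not called. Syt12 was also at 0.93 and 0.98, short of 2-fold, when replicate 2 of first-site cortex or replicate 4 of cortex at site 2 was left out. The adjusted p alone was passed by 26 genes within retina and 29 within cortex, where 46.7% and 46.8% of all probes passed it.

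**Figure D4:**
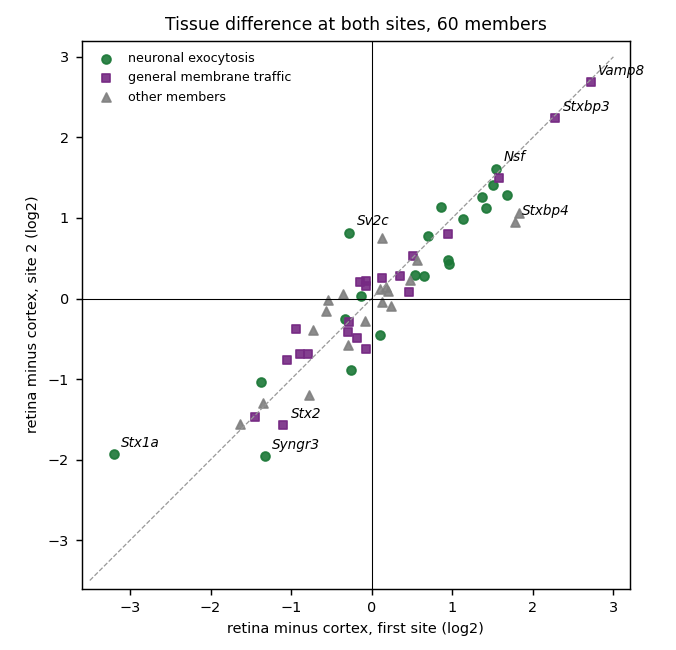
Tissue difference (log2, retina minus cortex) of the 60 genes at the first site (x axis) and at site 2 (y axis), each from its own 10 arrays. Circles are neuronal exocytosis genes, squares general membrane traffic and triangles the others, and the dashed line marks equal differences. Vamp8 and Stxbp3 lie at the upper end near the line, and Stx1a lies above it at the lower end.

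Other genes of the vesicle cycle were also called in both directions. Of all probes tested, 11.9% were called higher in retina and 13.0% lower at the first site, and 11.1% and 13.5% at site 2. Of 23 regulators of release and priming on the array, 4 were higher in retina and 7 lower at the first site, and 3 and 6 at site 2, with a median of 0.17 and -0.11 log2. Rab3b, a vesicle GTPase, was lower in retina (log2 difference -3.05 and -3.04), with mean intensities of 1.61 in first-site retina and 13.3 in first-site cortex. Ppfia4, a liprin of the active zone, was also lower (-1.96 and -1.97), while Sncg, gamma-synuclein, and Ctbp2, whose locus encodes the ribbon protein, were higher by 5.54 and 5.57 and by 2.28 and 2.46. Of 12 vesicular transporters and vesicle membrane genes, 3 were higher at each site and 0 lower, with a median of 0.38 and 0.34, led by Slc18a3, the vesicular acetylcholine transporter (2.74 and 2.82). Of 15 recycling genes, 3 were higher at each site and 1 and 2 lower, with a median of -0.03 and 0.04. Sh3gl3, an endophilin, was lower (-3.41 and -3.39), and Ap2m1, the medium subunit of the clathrin adaptor, was not called (0.03 and -0.20).

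Markers of other cells differed between the tissues as well, in both directions. The 3 pigment epithelium markers on the array, Rpe65, Dct and Krt18, were all higher in retina at both sites, with a summed intensity of 12.6 to 16.02 in first-site retina and 0.549 to 0.650 in first-site cortex, blank values left out. Of the 4 astrocyte and Müller glia markers, 3 were higher in retina, with a sum of 108 to 130.3 in retina and 37.1 to 43.5 in cortex at the first site. Of the 4 progenitor and cycling cell markers, 3 were lower in retina, with a sum of 13.96 to 16.4 in retina and 83.9 to 122.9 in cortex. Of the 4 pituitary markers, 2 (Gh and Cga) were lower in retina, with a sum of 0.849 to 0.981 in retina and 12.2 to 14.2 in cortex. Endothelial markers were mixed: of 5, 2 were higher in retina and 2 lower at the first site, and 1 and 1 at site 2. Lower in retina at each site were 2 of 4 microglia markers, 2 of 3 oligodendrocyte markers and the 2 immature neuron markers tested. The part of these cells in the differences of Vamp8, Stx4a, Stxbp3, Stx7 and Sytl4 was not tested.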

How the data were processed

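Total RNA pools of retina and cortex were measured on 20 arrays, with 5 technical replicates per tissue and site. The deposited intensity values hold 1 number per probe and array on a linear scale. Labelling followed the CodeLink Expression Assay protocol, per the labels, and no source used here gives the scanner software, background correction or scaling. Judged by their range, array medians differed by at most 0.0594 log2 and 143 values were at or below 0, so the deposited scaling was kept, and values at or below 0 were treated as missing.

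Probes with at least 3 of 5 values in each group (10339 of 10500) were fitted on log2 intensity in limma 3.58.1 under R 4.3.3, with 4 group means in 1 model (lmFit, eBayes), and p-values were adjusted over all probes by Benjamini-Hochberg. A call needs an adjusted p under 0.05 and at least 2-fold. The fit was tested on simulated data. Gene names came from the platform annotation (9378 probes with 1 symbol, 8 with several, 1114 with none), and all 60 symbols were current in the RefSeq table. For each role, values on every array are given for up to 4 genes called at both sites and 2 brightest called at neither, and for all called at 1 site. Of the other vesicle cycle genes, the 7 with the largest differences called at both sites and the brightest not called are named. The genes and lists were chosen with earlier results of these data known. Replicate numbers did not pair arrays: over 30 pairs of groups and numbers the correlation of deviations ran from -0.11 to 0.071. Alternatives were quantile normalization, floors, other filters, the replicate block, fits of only the 2 groups compared, probe averages, fold limits and each array left out. Figures were drawn with matplotlib 3.10.9.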

Additional observations from a re-analysis of the deposited data

Results flagged for a closer look

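A total of 24 values of these genes stood far from the other arrays of their group by Dixon's test on log2 intensity, among 240 gene and group combinations, where chance gives about 1 in 20. Replicate 5 of cortex at site 2 held 10 of them, 9 at the low end: Cplx1 at 2.07, Cplx2 at 2.24, Stx12 at 17.3, Stx1a at 1.47, Sv2c at 0.0156, Syp at 8.21, Syt7 at 0.0493, Syt8 at 0.0612 and Vamp5 at 0.461. Its Stx2 value of 4.55 lay at the high end. In retina at site 2, Stx1a at 8.05 and Sv2c at 0.127 on replicate 3 and Syngr1 at 1.27 on replicate 2 were high. Napb at 8.88 on replicate 2 was low. There, Syn3 at 0.284 on replicate 1, and Syt2 at 0.254 and Syt5 at 1.06 on replicate 5, also stood apart. In first-site retina, replicate 1 was high for Cplx2 (2.85), Stxbp4 (0.531) and Syt2 (0.201), and Sytl1 was low on replicate 2 (0.0118). In first-site cortex, Sv2a was high on replicate 2 (1.72), and Syngr4 on replicate 3 (0.0387) and Syt10 on replicate 4 (0.0194) were low.

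The tissue difference itself differed between sites, by limma's interaction test, in 4 genes, each below 2-fold, where 3.98% of all probes passed the adjusted p. It was higher at site 2 by 0.57 log2 in Stx12 (adjusted p = 0.020) and by 0.63 in Stxbp5 (adjusted p = 0.024). In Stxbp2 it was lower at site 2 (-0.56, adjusted p = 0.041), and likewise in Syn3 (-0.63, adjusted p = 0.050). Over the 26 other settings the adjusted p stayed under 0.05 in 25 for Stx12, 24 for Stxbp5, 12 for Stxbp2 and 8 for Syn3. The second probe of Stxbp5 gave 0.35 (adjusted p = 0.17).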

How the results depend on the processing

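No tissue difference changed direction with a call under any of 7 other fits, 2 fold limits and 20 arrays left out in turn. With the replicate block the first site had 11 genes higher and 8 lower and site 2 had 10 and 8, as without it. In the pairing check the array of the same number was the best match in 5 of 30 comparisons, each among 5 arrays. With the adjusted p alone the first site had 23 genes higher in retina and 17 lower (59.9% of all probes passed in either direction), site 2 had 25 and 20 (60.4%), and there were 2 and 2 in the difference between sites (3.98%), 12 and 14 within retina (46.7%) and 16 and 13 within cortex (46.8%). At 4-fold the counts were 2 and 1, 2 and 0, 0 and 0 within retina, and 0 higher within cortex. Within cortex quantile normalization gave 1 higher and 2 lower at site 2, and a floor at the 25th percentile gave 0 higher. Leaving out 1 array gave 11 to 13 higher and 8 to 9 lower at the first site, 10 to 12 and 7 to 8 at site 2, 1 to 2 higher within retina, and 1 to 2 higher and 0 to 1 lower within cortex. Quantile normalization lost Stx2 at the first site (-1.02, adjusted p = 0.060) and brought Vamp1 (1.06), Stxbp4 (1.31) and Sv2c (1.01) past 2-fold at site 2, where Sv2c is dim and was at 0.37 without replicate 5 of cortex. Calls gained when 1 array was left out lay within 0.04 log2 of the 2-fold limit (Napa, Syngr1, Sypl2, Vamp1 and Stxbp4). The cause of these changes was not tested. Intensity near the low end limits Syt2, Sytl4, Stxbp4, Syt12 and Sv2c, and Syt9 at site 2.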
